A study of Mus musculus with 9 samples.

Results

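The jejunum of mice that had no food in the gut, through total parenteral nutrition (TPN) or through starvation, was compared with the jejunum of sham mice. The mean of the TPN and starvation groups was set against sham as a single contrast for every gene, and each group's own change is given beside it. All 9 of the 9 bulk RNA-seq libraries of the series entered it: 3 sham, 3 TPN and 3 starvation libraries, each from a 5 cm piece of jejunum taken after 24 h and opened lengthwise. TPN delivers nutrients into a vein, so that the TPN group was fed from the blood and the starvation group, as its name says, by neither route. The 6 TPN and starvation libraries are called the unfed libraries below, meaning without food in the gut. The sources used here do not give strain, genotype, age, sex, or how each group, sham included, was fed and operated on. Food in the gut therefore cannot be told apart from any other step in which sham differed from both groups. Replicates are labelled as biological, but no label ties each of them to its own mouse. If some share a mouse, the p-values rest on a spread between samples that may be technical.

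An enterocyte, the absorptive cell of the jejunal villus, takes up nutrients from the lumen on its brush border side and from the blood on its other side. In fasting, blood glucocorticoid and free fatty acids rise. Glucocorticoid binds the glucocorticoid receptor, which induces genes such as Fkbp5, and fatty acids activate PPAR alpha, which induces genes of fat oxidation. The aryl hydrocarbon receptor is activated by plant and microbial compounds in the lumen and induces Cyp1a1. The epithelium also holds a standing interferon signal in healthy animals, which keeps antiviral and antibacterial defence genes expressed.

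Depth ran from 7779877 counts (TPN replicate 2) to 12084278 (sham replicate 3), and 14668 of 21868 genes had enough reads to be tested. A set of markers of cell types and villus zones showed that libraries stood apart for reasons other than the groups. Smooth muscle markers averaged 9.20 log2 CPM (CPM being read counts scaled to library size with TMM) in sham replicate 2 and 4.93 to 6.57 in the other 8 libraries. Starvation replicate 3 had the highest villus tip level, at 9.89, followed by sham replicate 2 at 9.20, and the other 7 libraries ran from 7.69 to 8.37. It also had the lowest stem cell level, at 3.62, where the other 8 libraries ran from 4.94 to 5.40. Pancreatic acinar markers were high in 1 sham, 2 TPN and 1 starvation library. In bulk tissue, fewer cells of a type and less RNA per cell cannot be told apart. Counts without starvation replicate 3 are given below for the lists it moved by over 1.5 times, and those without sham replicate 2 for muscle and matrix genes. Fits that left out single libraries are also given below for other genes and lists. Where none is given, the part of either library is not stated. Why these libraries stood apart was not tested.

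**Figure D1:**
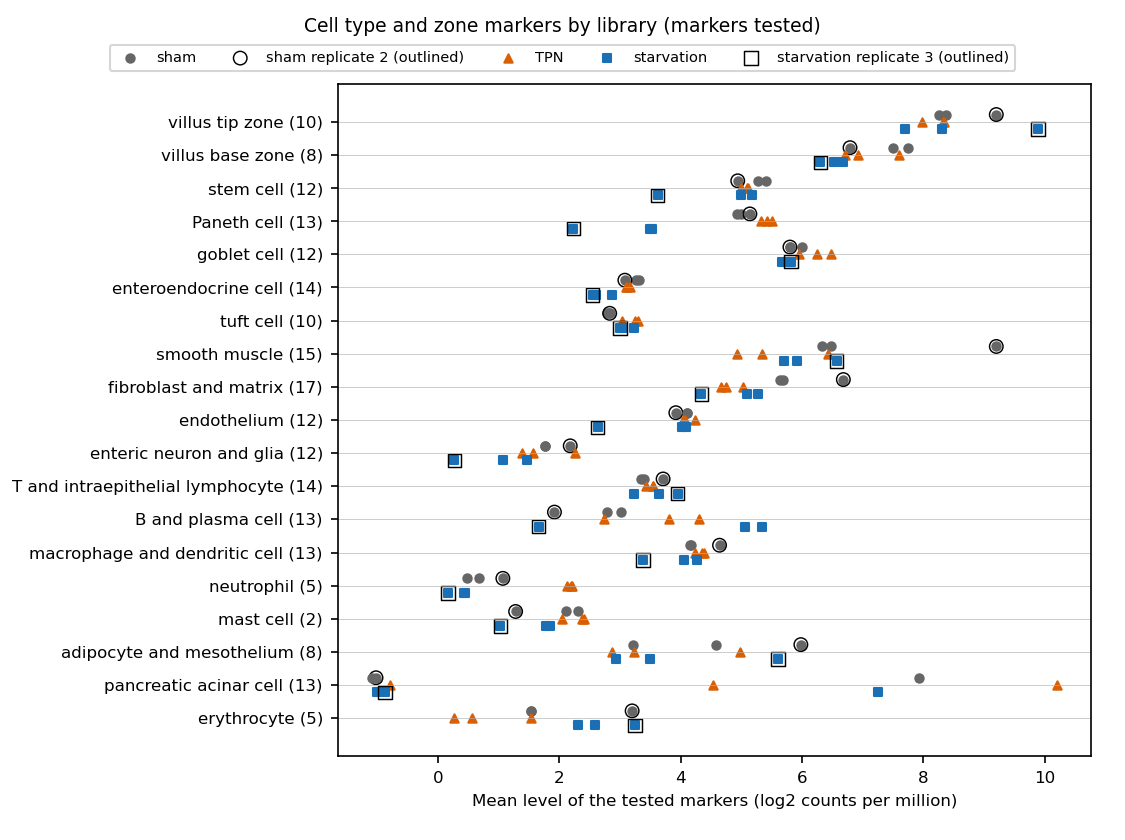
Mean level of the tested markers of each cell type or villus zone (x axis, log2 CPM) in each of the 9 libraries; the number of markers tested stands in brackets, and sham replicate 2 and starvation replicate 3 are outlined. Sham replicate 2 lies apart for smooth muscle at 9.20, and starvation replicate 3 for the stem cell at 3.62 and, beside sham replicate 2 at 9.20, for the villus tip at 9.89.

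Across the genes tested, 447 rose and 437 fell in the unfed groups at an adjusted p under 0.05 (edgeR quasi-likelihood test, Benjamini-Hochberg over all genes tested). That is 6.03% of the genes tested, 3.05% higher and 2.98% lower, and 210 of the rises and 180 of the falls were at least 2-fold. Every count of list members below is to be read beside these shares. Metallothioneins, glucocorticoid-induced genes and fasting genes led the rises. Cyp1a1, muscle and matrix genes, P450 enzymes and interferon-induced genes were among the falls. Of the 447, 409 had all 6 unfed libraries above all 3 sham libraries, where 7.32% of the genes tested did. Of the 437, 300 had all 6 below, against 5.05% of the genes tested. The remaining 175 called genes had an overlap, most often in starvation: in 146 the starvation libraries overlapped sham and in 27 the TPN libraries did. In the other 2 the groups lay on opposite sides of sham. Scaling by library totals alone gave 463 rises and 299 falls, so that 60.8% of the called genes were higher in place of 50.6%.

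A called mean of 2 groups does not show that both moved alike, so TPN was also tested against starvation in the same fit, which called 857 genes (5.84% of those tested). Of the 884 genes called against sham, 164 were among them (1.12% of the genes tested). The split was uneven. Among genes that fell, TPN was the lower group in 105 and the higher group in 14, and among genes that rose TPN was the higher in 28 and the lower in 17. In 464 of the 884 (52.5%, against 48.9% of all genes tested), the 95% interval of TPN minus starvation lay within 1 log2 unit either way, so a difference over 2-fold lay outside it. For 268 genes neither held, and whether the groups differed was not resolved with 3 libraries each. In the other direction, 693 genes were called between TPN and starvation but not against sham, and in 148 of these the groups lay on opposite sides of all sham libraries, as they did in 1.40% of all genes tested.

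**Figure D2:**
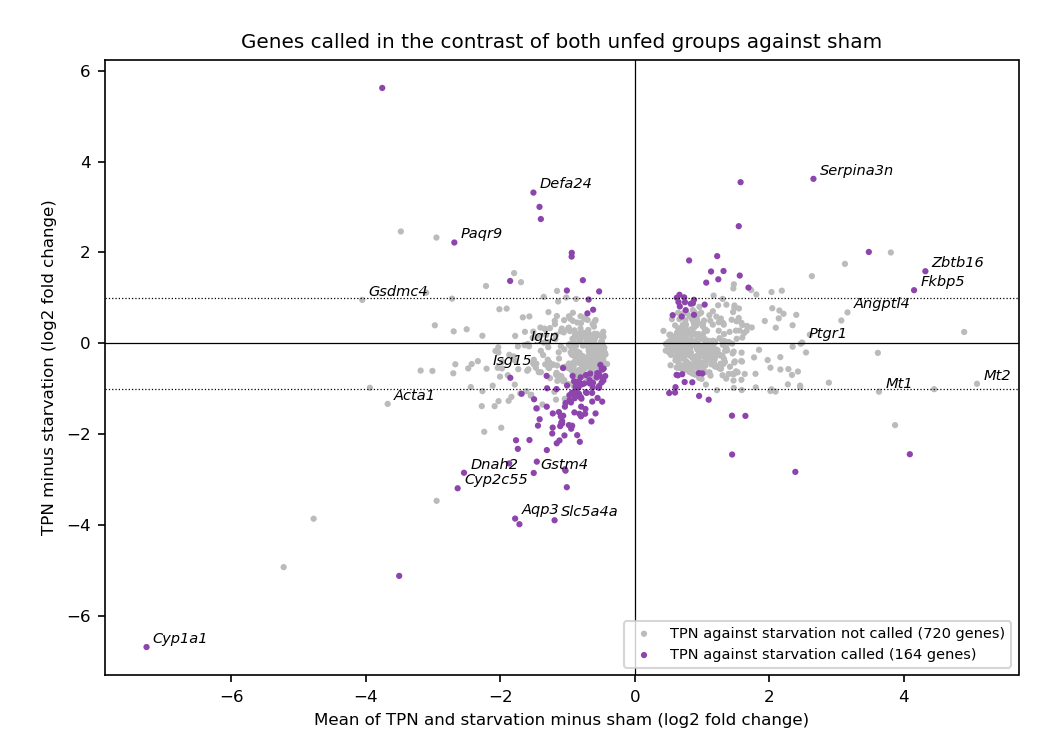
Each point is 1 of the 884 genes called against sham; the x axis is the mean of TPN and starvation minus sham and the y axis TPN minus starvation (both log2 fold change), with dotted lines at 1 log2 unit. The 164 genes called between TPN and starvation are purple, and among the falls more of them lie below 0 (105) than above (14), with Cyp1a1 the farthest down at -6.69.

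The number of calls changed widely when single libraries were left out. Leaving out 1 library at a time gave between 54 rises and 50 falls (without sham replicate 3) and 1492 rises and 1799 falls (without starvation replicate 3). Each of these fits also had 1 library fewer, so a lost call does not by itself show that the change rested on the library left out. Ranges of the log2 fold change over the fits, where given below, show how far its size moved. Of the 884 genes, 88 were called in all 9 of these fits, 82 of them with all 6 unfed libraries on 1 side. The genes described first in each paragraph below belong to those 88 unless another number of fits is given. The 12 largest rises and falls are of called genes with all 6 unfed libraries on 1 side of sham. Every ranking by size over all genes keeps to a mean of at least 3 log2 CPM. Of the called genes named below or in their lists, 89 lost their call in at least 1 fit. Without sham replicates 1, 2 and 3 the number that lost it was 62, 38 and 88. Without TPN replicates 1, 2 and 3 it was 79, 72 and 66. Without starvation replicates 1, 2 and 3 it was 26, 65 and 0.

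The metallothioneins, small cysteine-rich proteins that bind zinc and copper, showed the largest and the fourth largest rise. Mt2 stood at 7.95, 2.67 and 4.75 CPM in sham replicates 1 to 3, at 124, 134 and 127 in TPN, and at 162, 197 and 357 in starvation. Mt1 stood at 20.9, 17.0 and 22 CPM in sham, at 140, 215 and 157 in TPN, and at 249, 230 and 596 in starvation. For both genes every unfed library lay above every sham library, and starvation replicate 3 was the highest. The joint log2 fold change of Mt2 was 5.09 ± 0.42 (± SE, adjusted p = 0.00108), made of 4.64 ± 0.43 in TPN and 5.54 ± 0.44 in starvation. That of Mt1 was 3.63 ± 0.37 (adjusted p = 0.00251), with 3.10 ± 0.38 and 4.17 ± 0.40. TPN and starvation were not called different for either gene, with intervals of -1.70 to -0.09 for Mt2 and -1.86 to -0.28 for Mt1. Among the 11 tested genes of the metallothionein and zinc transport list these were the only rises, and the zinc importer of the brush border, Slc39a4, was the only fall. Slc39a4 was at 218, 258 and 233 CPM in sham, 150, 157 and 135 in TPN and 75.1, 67.9 and 150 in starvation, a fall of 0.98 ± 0.23 (adjusted p = 0.0408). Its call was kept in 1 of the 9 fits, that without starvation replicate 3, and the log2 fold change ran from -1.20 to -0.88 over the 9. The other 8 members did not pass (adjusted p 0.0597 to 0.993), and without starvation replicate 3 the metallothionein and zinc list had 4 members higher and 3 lower.

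Mt1 and Mt2 lie side by side on chromosome 8 (GRCm38, chr8:94179082-94180327 and chr8:94172664-94173568, plus strand); Gm45774 overlaps Mt2 on the other strand, and their reads cannot be told apart if the counting ignored strand. The 250 bases before their RefSeq starts (build GRCm38.p6, 5′ to 3′ on the gene's strand, chr8:94178839-94179088 and chr8:94172368-94172617) are shown because metal-response elements, bound by the zinc sensor MTF1, are the textbook control of both genes. Capitals mark the core of that element, TGCACNC or TGCGCNC on either strand.
Mt1: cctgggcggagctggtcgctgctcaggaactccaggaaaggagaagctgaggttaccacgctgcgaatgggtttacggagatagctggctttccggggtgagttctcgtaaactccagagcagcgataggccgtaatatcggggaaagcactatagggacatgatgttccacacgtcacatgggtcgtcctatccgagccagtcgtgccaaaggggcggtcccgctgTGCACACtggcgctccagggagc
Mt2: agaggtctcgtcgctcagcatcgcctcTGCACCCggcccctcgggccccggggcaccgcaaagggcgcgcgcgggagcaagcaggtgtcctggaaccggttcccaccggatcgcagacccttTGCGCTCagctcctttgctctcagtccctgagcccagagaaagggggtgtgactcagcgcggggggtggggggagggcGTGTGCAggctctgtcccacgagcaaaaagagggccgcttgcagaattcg
In its window Mt1 held 1 such core, its first base 23 bases before the start. Mt2 held 3, at 223, 128 and 50 bases, and the last overlaps a GCGTG. Cores outside the windows, such as past the RefSeq starts, were not counted. The Mt2 window ends at 94172617, before the gene start of 94172664 given above. The core is common: 23.8% of the 27025 genes with a promoter hold it in a window of this length, and 33% of the tested genes among them. A match describes the letters and is not evidence of binding.

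Glucocorticoid-induced genes rose together: 10 of 15 tested list members rose and 0 fell, where 3.05% and 2.98% of all genes did (0 also at an unadjusted p under 0.05, by DESeq2 and by limma voom). The list's median log2 fold change was 1.53 (2.31 in TPN, 1.20 in starvation), beside -0.03 for all genes tested, and 6 members were called without sham replicate 3. Fkbp5, a chaperone that restrains the glucocorticoid receptor, was at 19.3, 12.3 and 15 CPM in sham, 421, 433 and 390 in TPN and 166, 162 and 226 in starvation. Zbtb16, a transcription factor, was at 1.08, 2.88 and 1.75 CPM in sham, 65.3, 73.3 and 58.5 in TPN and 16, 15.8 and 34.0 in starvation. In these genes the 3 groups did not overlap, with sham lowest and TPN highest. Fkbp5 rose by 4.15 ± 0.22 (adjusted p = 5.19e-05; 4.74 ± 0.24 in TPN, 3.57 ± 0.23 in starvation) and Zbtb16 by 4.32 ± 0.39 (adjusted p = 0.00122; 5.11 ± 0.42 and 3.53 ± 0.40). Both rose further in TPN than in starvation, by 1.17 and 1.58 log2 units (adjusted p = 0.0140 and 0.0296).

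Sgk1, a kinase that raises sodium uptake, rose by nearly equal amounts in both groups. It was at 158, 139 and 142 CPM in sham, 877, 784 and 761 in TPN and 500, 642 and 1301 in starvation. Its joint change was 2.47 ± 0.31 (adjusted p = 0.00564), with 2.46 ± 0.33 and 2.47 ± 0.33, and TPN minus starvation lay between -0.71 and 0.69. Ddit4, an inhibitor of mTORC1, rose by 1.56 ± 0.19 (adjusted p = 0.00530) and further in TPN (2.31 ± 0.21) than in starvation (0.82 ± 0.21), a difference of 1.49 (adjusted p = 0.00621). Of the rest, Per1, a clock repressor, rose by 1.10, Klf15, a transcription factor of amino acid breakdown, by 1.53, Tsc22d3, an anti-inflammatory leucine zipper protein, by 1.21 and Hif3a, an inhibitory subunit of the hypoxia factors, by 3.48. These 4 were called in 5, 4, 7 and 8 of the 9 fits; all were lost without sham replicate 3, and over the fits they ran from 0.98 to 1.20, 1.29 to 1.64, 1.09 to 1.30 and 3.23 to 3.66. Hif3a was near the detection limit in sham, at 0.49, 0.53 and 0.42 CPM. Ddit4, Tsc22d3 and Hif3a fall outside the rule by which genes were named and were added to complete the list. Mt1 and Mt2 are the other called members of the list. The 5 members that were not called ran from -0.34 (Dusp1) to 0.44 (Errfi1).

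**Figure D3:**
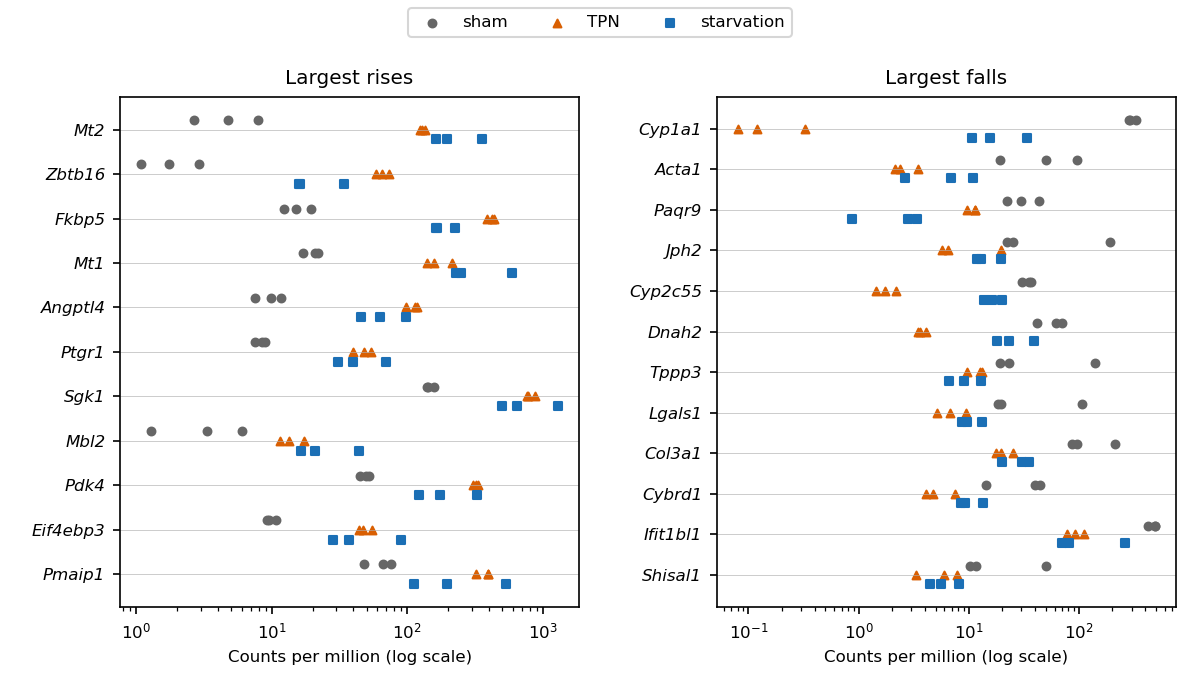
Level of 11 of the 12 largest rises and of the 12 largest falls in each of the 9 libraries (x axis, CPM on a log scale). They are the largest among called genes with a mean of at least 3 log2 CPM and all 6 unfed libraries on 1 side of the 3 sham libraries. Mt2, Fkbp5 and Zbtb16 are separated from sham by far more than their spread, and in Jph2, Tppp3, Lgals1 and Shisal1 1 sham library, replicate 2, lies far to the right of the other sham points.

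Genes that turn fuel use toward fat rose in part. Of 21 tested PPAR alpha fasting targets 4 rose and 1 fell, where 3.05% and 2.98% of all genes did, and the median was 0.07. The PPAR alpha list had 2 higher and 0 lower without sham replicate 3, and 6 higher and 3 lower without starvation replicate 3. Angptl4, a secreted inhibitor of lipoprotein lipase, was at 9.82, 7.47 and 11.7 CPM in sham, 118, 115 and 97.3 in TPN and 45.6, 62.6 and 98.5 in starvation. Pdk4, which holds pyruvate back from oxidation, was at 44.8, 52.5 and 49.6 CPM in sham, 333, 322 and 308 in TPN and 121, 174 and 330 in starvation. All unfed libraries lay above sham in both genes, and starvation replicate 3 reached the TPN level. Angptl4 rose by 3.16 ± 0.28 (adjusted p = 0.00108; 3.50 ± 0.30 in TPN, 2.82 ± 0.29 in starvation) and Pdk4 by 2.40 ± 0.30 (adjusted p = 0.00564; 2.71 ± 0.33 and 2.09 ± 0.32). Acot1, an acyl-CoA thioesterase, rose by 2.03 ± 0.35 and Plin2, a lipid droplet coat protein, fell by 0.47 ± 0.10. Acot1 lost its call without sham replicate 3 and TPN replicate 1, and Plin2 in 7 fits, all but those without starvation replicate 1 and starvation replicate 3. Their log2 fold changes ran from 1.81 to 2.22 and from -0.52 to -0.44. Cpt1a, the carnitine transferase that admits fatty acids to mitochondria, was not called, at -0.05 ± 0.27 (adjusted p = 0.923).

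Genes raised by FOXO factors or acting in insulin signalling rose in 5 of 17 tested members and fell in 0 (1 lower at an unadjusted p under 0.05, 0 by DESeq2 and by limma voom). Bcl6 is a transcriptional repressor and a FOXO target. It was at 11.6, 9.50 and 8.08 CPM in sham, 35.5, 36.5 and 31.2 in TPN and 21.8, 25.5 and 22.9 in starvation. It rose by 1.55 ± 0.16 (adjusted p = 0.00266; 1.82 ± 0.18 and 1.27 ± 0.18), with no overlap between any of the groups. Insr, the insulin receptor, rose by 0.85 ± 0.14, Klf15 by the amount given above, Foxo1 by 0.46 ± 0.10 and Rictor, a subunit of mTORC2, by 0.78 ± 0.17. All 5 had an interval of TPN minus starvation within 1 log2 unit except Klf15, at -1.37 to 0.08. Insr was lost without sham replicate 3 and TPN replicates 1 and 2 (0.79 to 0.91 over the fits), and Foxo1 (0.43 to 0.51) and Rictor (0.60 to 0.92) were each kept in 2 of the 9. The list counted 1 rise without sham replicate 3 or TPN replicate 1, and 2 members of the insulin and FOXO list were lower without starvation replicate 3.

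Apart from Sgk1 and 3 genes taken up elsewhere (Ptgr1, Eif4ebp3 and Igtp), the largest changes of like size in TPN and starvation were in N4bp2l1, Apol10a, Clca3a1 and Gm609, all with an interval of the difference within 1 log2 unit. N4bp2l1 was at 21.3, 13.0 and 21.8 CPM in sham, 110, 94.2 and 96.0 in TPN and 65.5, 66.1 and 73.7 in starvation. It rose by 2.14 ± 0.18 (adjusted p = 0.00108; 2.41 ± 0.20 and 1.87 ± 0.20). Apol10a, of the apolipoprotein L family, was at 311, 272 and 335 CPM in sham, 82.2, 76.8 and 74.6 in TPN and 76.4, 128 and 100 in starvation. All unfed libraries lay below every sham library, and the gene fell by 1.78 ± 0.16 (adjusted p = 0.00122; -1.97 ± 0.20 and -1.59 ± 0.20). Clca3a1, of the calcium-activated chloride channel regulator family, rose by 1.74 ± 0.20 (adjusted p = 0.00396), and Gm609, a predicted gene, by 1.63 ± 0.20 (adjusted p = 0.00573).

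Ptgr1, a reductase that inactivates prostaglandins and leukotriene B4, had nearly the same change in both groups. It was at 8.93, 7.58 and 8.50 CPM in sham, 53.6, 48.3 and 39.4 in TPN and 30.6, 40.005 and 69.5 in starvation, a rise of 2.49 ± 0.27 (adjusted p = 0.00362; 2.50 ± 0.29 and 2.48 ± 0.29). The difference lay between -0.59 and 0.62. Eif4ebp3, a translation repressor that binds eIF4E, rose by 2.35 ± 0.36 (adjusted p = 0.0105), with 2.31 in TPN and 2.39 in starvation and a difference between -0.88 and 0.73. It was lost without sham replicate 3 (2.02 to 2.50 over the fits). Of the 12 largest rises, Mbl2 and Pmaip1 were less secure. Mbl2, a mannose-binding lectin of complement, rose by 2.46 ± 0.49 and was kept in 4 of 9 fits (2.07 to 3.05), and Pmaip1, the pro-apoptotic protein Noxa, rose by 2.35 ± 0.46 and was kept in 3 (1.92 to 2.54). Both were lost without sham replicate 3 and without each TPN replicate, Mbl2 also without starvation replicate 2 and Pmaip1 also without sham replicates 1 and 2.

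Interferon-induced genes fell: 16 of 31 tested list members were lower and 0 higher (0 also at an unadjusted p under 0.05, by DESeq2 and by limma voom), against 2.98% of all genes lower. The median was -0.94 (-0.81 in TPN, -0.97 in starvation), beside -0.03 for all genes. In 13 of the 31 all 6 unfed libraries lay below all sham libraries, where 5.05% of all genes did. The falls covered the immunity-related GTPases (Igtp, Ifi47, Irgm1, Irgm2), the guanylate-binding proteins (Gbp3, Gbp6, Gbp7) and the RNA-binding Ifit2 and Ifit3. They also covered the antiviral proteins Isg15, Rsad2 and Zbp1, the immunoproteasome subunits Psmb8 and Psmb9 and the peptide transporter Tap1. Leaving out single libraries gave 5 (without sham replicate 3) to 27 (without starvation replicate 3) members lower, 0 higher in each, with a median of -1.05 to -0.87. The T and intraepithelial lymphocyte and macrophage and dendritic cell lists, sources of interferon and of these transcripts, had 0 of 14 and 0 of 13 members called (2 and 1 at an unadjusted p under 0.05, 0 and 0 by DESeq2 and by limma voom). With starvation replicate 3 left out, 1 T cell list member was higher and 3 lower, and 1 of the macrophage list was higher. The summed levels of the T cell and macrophage lists were 294 to 502 and 523 to 894 CPM in sham, 255 to 303 and 559 to 663 in TPN, and 197 to 456 and 351 to 601 in starvation. Their part in the fall was not tested.

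Igtp was at 145, 131 and 167 CPM in sham, 47.6, 43.3 and 49.2 in TPN and 39.0, 34.4 and 71.3 in starvation. Ifi47 was at 113, 118 and 120 CPM in sham, 59.3, 53.8 and 69.6 in TPN and 38.4, 42.3 and 49.2 in starvation. Irgm1 was at 75.6, 68.8 and 89.3 CPM in sham, 39.3, 40.6 and 43.1 in TPN and 39.7, 32.6 and 26.0 in starvation. No unfed library of these genes reached the lowest sham library. Igtp fell by 1.64 ± 0.21 (adjusted p = 0.00573; -1.66 ± 0.26 in TPN, -1.62 ± 0.25 in starvation), Ifi47 by 1.19 ± 0.12 (adjusted p = 0.00240; -0.94 ± 0.14 and -1.44 ± 0.15) and Irgm1 by 1.09 ± 0.14 (adjusted p = 0.00665; -0.93 ± 0.17 and -1.25 ± 0.17). Irgm2 (-1.32 ± 0.18) and Gbp3 (-1.19 ± 0.19) were called in all 9 fits too, with no unfed library above sham. Igtp and Irgm2 overlap on the same strand of chromosome 11, so reads in the shared stretch are of uncertain origin.

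The remaining interferon members were less even. Isg15, a ubiquitin-like modifier, had the largest fall of the list, 2.20 ± 0.53 (adjusted p = 0.0421), at 91.2, 291 and 129 CPM in sham, 26.8, 27.7 and 36.7 in TPN and 15.5, 23.8 and 95.9 in starvation. Starvation replicate 3 overlapped sham replicate 1 there, and the call was kept only without starvation replicate 3, with a range of -2.80 to -1.58. Gbp6 was level in TPN, at 0.01, and lower in starvation, at -1.89, a tested difference of 1.91 (adjusted p = 0.00587). Tap1 went the other way, at -1.18 in TPN and -0.43 in starvation, a difference of -0.75 (adjusted p = 0.0199). Outside the called members, only Tgtp2 of the list differed between TPN and starvation. Gbp7 and Tap1 kept their call in 8 fits (lost without sham replicate 3), and Ifit3, Psmb8 and Zbp1 in 7 (Ifit3 and Psmb8 lost without sham replicate 3 and TPN replicate 1, Zbp1 without sham replicate 3 and TPN replicate 2). Ifit2, Psmb9, Rsad2 and Gbp6 kept it in 4 or fewer. Except for Igtp, Ifi47 and Irgm1, the interferon members were named to account for the list, not by the naming rule. Ifit1bl1, a relative of Ifit1 outside the list, was at 487, 490 and 423 CPM in sham, 92.1, 78.2 and 112 in TPN and 80.7, 70.1 and 261 in starvation. It fell by 2.04 ± 0.36 (adjusted p = 0.0172) and was kept in 5 fits (-2.47 to -1.88).

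**Figure D4:**
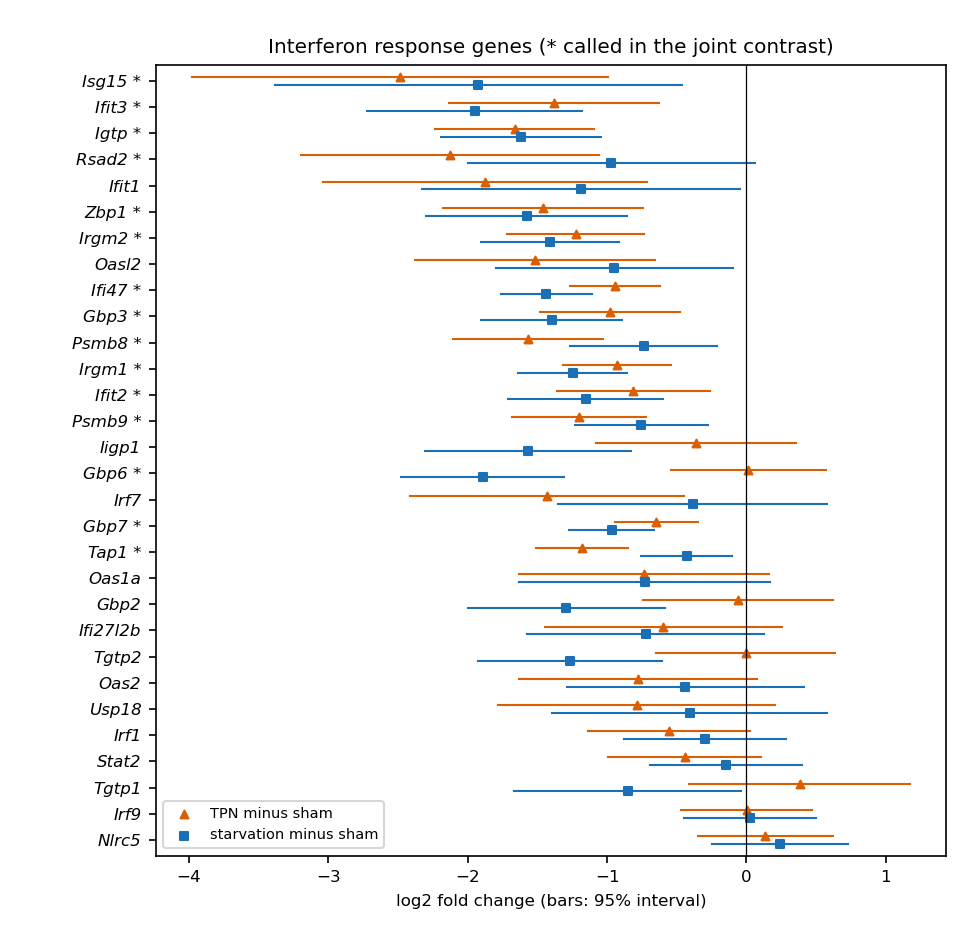
Change of 30 of the 31 tested interferon response genes in TPN and in starvation against sham (x axis, log2 fold change; bars are 95% intervals), ordered by the joint change, with an asterisk for the genes called in the joint contrast. For most genes both points lie left of 0, Igtp with nearly equal values of -1.66 and -1.62, and Gbp6 has its TPN point at 0.01.

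The promoters of 4 of these genes are shown because the interferon-stimulated response element, bound by IRF factors, is the textbook control of the family. They are the 250 bases before the RefSeq start (GRCm38.p6, 5′ to 3′ on the gene's strand), and capitals mark its core, GAAA, any pair of bases and GAAA again, on either strand. Isg15 lies at chr4:156200819-156201068 (minus strand), Igtp at chr11:58199306-58199555 (plus), Irgm1 at chr11:48871421-48871670 (minus) and Gbp3, for the start with a match, at chr3:142559794-142560043 (plus).
Isg15: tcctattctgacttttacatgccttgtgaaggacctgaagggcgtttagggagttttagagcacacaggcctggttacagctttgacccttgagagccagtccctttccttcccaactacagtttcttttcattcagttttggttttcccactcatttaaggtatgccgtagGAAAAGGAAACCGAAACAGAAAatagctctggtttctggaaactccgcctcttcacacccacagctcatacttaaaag
Igtp: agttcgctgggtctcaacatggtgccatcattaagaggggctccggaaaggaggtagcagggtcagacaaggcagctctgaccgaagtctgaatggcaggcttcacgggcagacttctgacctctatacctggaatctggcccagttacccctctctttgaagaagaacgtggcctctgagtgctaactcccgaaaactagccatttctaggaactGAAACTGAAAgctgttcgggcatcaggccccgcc
Irgm1: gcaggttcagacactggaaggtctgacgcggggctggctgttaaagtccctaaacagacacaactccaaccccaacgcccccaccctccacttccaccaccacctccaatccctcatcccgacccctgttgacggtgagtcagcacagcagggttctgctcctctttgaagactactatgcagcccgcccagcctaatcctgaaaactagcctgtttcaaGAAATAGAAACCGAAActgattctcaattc
Gbp3: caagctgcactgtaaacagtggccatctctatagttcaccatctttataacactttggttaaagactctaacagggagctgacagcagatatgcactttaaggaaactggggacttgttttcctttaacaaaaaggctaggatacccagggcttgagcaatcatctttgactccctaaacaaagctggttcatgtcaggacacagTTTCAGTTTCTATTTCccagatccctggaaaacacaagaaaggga
Isg15 holds 3 overlapping cores, Irgm1 and Gbp3 2 each, and Igtp 1, all within 78 bases of the start. Of the 16 called members 13 had a promoter in the RefSeq table, and 8 of the 13 (61.5%) held the core, where 3.46% of the 27025 genes with a promoter did. Among the 23 tested members with a promoter, 60.9% did, a like share. These are matches of letters in a short window. They show neither binding nor a cause.

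Genes of cholesterol synthesis were lower in 6 of 24 tested members and higher in 0 (0 also at an unadjusted p under 0.05, by DESeq2 and by limma voom), with a median of -0.47 (-0.60 in TPN, -0.36 in starvation). Insig1, which retains the cholesterol sensor in the endoplasmic reticulum, was at 171, 149 and 154 CPM in sham, 85.1, 77.7 and 83.6 in TPN and 86.2, 80.7 and 114 in starvation. It fell by 0.85 ± 0.13 (adjusted p = 0.0112; -0.94 ± 0.16 and -0.75 ± 0.16) with no overlap, and only leaving out sham replicate 3 ended its call (-0.93 to -0.79 over the fits). The synthesis enzymes Hmgcs1 (-0.65 ± 0.12), Cyp51 (-0.77 ± 0.17), Mvk (-1.04 ± 0.24), Idi1 (-0.99 ± 0.25) and Fdps (-1.09 ± 0.25) fell as well, in 2 to 4 of the 9 fits. In the list of cholesterol synthesis and uptake 0 members were called without sham replicate 3 and 8 without starvation replicate 3, with 17 when both libraries that stood apart were left out. The sterol exporters went up: Abca1, which loads cholesterol onto apolipoprotein A1, was at 25.7, 35.8 and 35.2 CPM in sham, 88.8, 87.6 and 76.4 in TPN and 63.7, 62.6 and 83.0 in starvation. Abca1 rose by 1.25 ± 0.16 (adjusted p = 0.00573; 1.38 ± 0.18 and 1.11 ± 0.17), all unfed libraries lying above sham. Abcg8, of the brush border sterol pump, rose by 0.91 ± 0.22 (adjusted p = 0.0436) but kept its call in 2 fits (0.77 to 1.02) and overlaps its partner Abcg5 on the other strand. They were the only 2 called of 28 tested genes of lipid absorption, whose median was -0.28 (-0.66 in TPN, 0.09 in starvation). At an unadjusted p under 0.05, 4 lipid absorption genes were higher and 6 lower, DESeq2 called 3 higher and 1 lower, and limma voom 3 higher and 0 lower. Of the lipid absorption genes 3 were higher and 12 lower without starvation replicate 3, where each of the other 8 fits had 0 lower. The fatty acid binding proteins Fabp1 and Fabp2 and the apolipoprotein Apoa4 were not called (0.45 ± 0.19, -1.18 ± 0.37 and -0.36 ± 0.48).

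In fatty acid synthesis 4 of 17 tested genes fell and 0 rose (1 higher at an unadjusted p under 0.05, 1 by DESeq2, 0 by limma voom). The fatty acid synthesis list had 1 lower without sham replicates 1 or 3 or TPN replicates 1 or 2, and 6 lower and 1 higher without starvation replicate 3. Me1, the malic enzyme that supplies NADPH, was at 31.9, 40.1 and 42.2 CPM in sham, 9.06, 7.51 and 7.85 in TPN and 38.3, 29.2 and 29.6 in starvation. It fell by 1.23 ± 0.15 (adjusted p = 0.00519), which came from TPN (-2.22, against -0.23 in starvation, a difference of -1.99 with adjusted p = 0.00113), and starvation overlapped sham. Scd2, a desaturase, was nearer in both groups (-1.48 and -1.11, joint -1.29 ± 0.24, kept in 3 fits, -1.45 to -1.11). The citrate carrier Slc25a1 (-0.84 ± 0.15) and Elovl1 (-0.41 ± 0.10) were kept in 4 fits and 1. Fasn, the fatty acid synthase, was not called, at -1.11 ± 0.49 (adjusted p = 0.181), with 107, 52.8 and 359 CPM in sham, and its change was 0.00266 without sham replicate 3.

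A minority of mitochondrial and glycolytic genes fell. Of 32 tested subunits of oxidative phosphorylation 5 fell and 1 rose, with a median of -0.37 (-0.37 in TPN, -0.32 in starvation). Ndufs8, of complex I, was at 39.5, 49.4 and 39.99 CPM in sham, 22.7, 17.5 and 24.9 in TPN and 18.6, 22.7 and 25.1 in starvation. It fell by 0.97 ± 0.16 (adjusted p = 0.0124) with nearly equal changes of -0.98 ± 0.19 and -0.96 ± 0.19, and its call was lost without sham replicate 3 (-1.03 to -0.86). Ndufb10 (-0.70 ± 0.12), Ndufv1 (-0.63 ± 0.12), Atp5a1 (-0.58 ± 0.14) and Atp5b (-0.63 ± 0.15) fell, and Sdhb, of complex II, rose by 0.82 ± 0.18. Ndufb10 was called in 6 of the 9 fits, Ndufv1 in 3, Atp5a1 and Sdhb in 2 and Atp5b in 1. Leaving out sham replicate 3, TPN replicate 1 or TPN replicate 2 ended all 5 of these calls. All 6 called subunits had an interval of TPN minus starvation within 1 log2 unit. Without sham replicate 3 none of the 32 was called for oxidative phosphorylation, and without starvation replicate 3 15 were lower and 2 higher. In glycolysis 4 of 18 fell and 0 rose (1 at an unadjusted p under 0.05, 0 by DESeq2 and by limma voom): Gapdh (-0.75 ± 0.17), Eno1 (-0.79 ± 0.15) and the lactate carriers Slc16a1 (-0.57 ± 0.12) and Slc16a3 (-1.37 ± 0.31). Each was kept in 2 or 3 of the 9 fits, and lost without sham replicates 1 and 3, each TPN replicate and starvation replicate 2. The glycolysis list had 1 member lower without sham replicate 2 and 7 without starvation replicate 3.

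Matrix and muscle genes gave several of the largest falls, and here sham replicate 2, the library with the highest smooth muscle level, was the highest in many of them. Acta1, the skeletal muscle actin that is also found in visceral muscle, was at 19.1, 94.7 and 50.3 CPM in sham, 2.39, 2.15 and 3.44 in TPN and 6.94, 2.64 and 10.9 in starvation. Col3a1, a fibrillar collagen of fibroblasts, was at 86, 210 and 96.0 CPM in sham, 17.7, 19.4 and 24.9 in TPN and 30.6, 34.8 and 19.9 in starvation. Sham replicate 2 was the highest in both, and the other sham libraries still lay above all unfed libraries. Acta1 fell by 3.67 ± 0.49 (adjusted p = 0.00665; -4.34 ± 0.66 in TPN, -3.01 ± 0.61 in starvation), or by 3.02 ± 0.46 without sham replicate 2 (adjusted p = 0.0174). Col3a1 fell by 2.43 ± 0.28 (adjusted p = 0.00483; -2.66 ± 0.36 and -2.20 ± 0.36), or by 1.91 ± 0.20 without it (adjusted p = 0.00448). Of 17 tested fibroblast and matrix genes 7 fell and 0 rose (0 also at an unadjusted p under 0.05, by DESeq2 and by limma voom), all of them collagens but Sparc. The median of the fibroblast and matrix list was -1.47, or -0.72 with 4 called without sham replicate 2, and 1 was called without sham replicate 3 or TPN replicate 1. The fibroblast and matrix list had 11 members lower without starvation replicate 3. Col1a1 (-1.97 ± 0.33) was lost without sham replicate 3 or TPN replicate 1 (-2.21 to -1.62 over the fits), and Col6a3 (-1.47 ± 0.27) kept its call in 5 fits.

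The smooth muscle list had a median of -2.24 with 1 of 15 members called (Actg2, -3.01 ± 0.72), but -0.41 with 0 called without sham replicate 2. All 15 smooth muscle genes had an unadjusted p under 0.05, DESeq2 called 4 and limma voom 0, and 8 were called lower without starvation replicate 3. The list's summed level was 3830 to 15600 CPM in sham, 2210 to 3410 in TPN and 2370 to 4050 in starvation. Of the 12 largest falls, Jph2 (a junction protein of muscle), Tppp3 (a tubulin-binding protein), Lgals1 (galectin 1) and Shisal1 followed that library. Jph2 went from -2.67 to -0.94, Tppp3 from -2.50 to -1.0, Lgals1 from -2.48 to -1.14 and Shisal1 from -2.03 to -0.89 when sham replicate 2 was left out, and of these only Lgals1 stayed called (adjusted p = 0.0443). Actg2 went to -1.29 and lost its call too.

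Some genes that answer to foreign compounds fell in the mean of both groups, several of them further in TPN than in starvation. Cyp1a1, the aryl hydrocarbon receptor's best-known target, had the largest fall of all named genes. It was at 292, 281 and 331 CPM in sham, 0.33, 0.12 and 0.08 in TPN and 15.6, 10.7 and 33.9 in starvation, from 9578 reads in the sham libraries, 6 in TPN and 589 in starvation. The 3 groups did not overlap. The joint change was -7.26 ± 0.39 (adjusted p = 5.19e-05), made of -10.61 ± 0.61 in TPN and -3.91 ± 0.41 in starvation, and the difference of -6.69 was itself called (adjusted p = 0.00103). Of 9 tested targets of the receptor only Cyp1a1 and Nqo1 fell and 0 rose (0 also at an unadjusted p under 0.05, by DESeq2 and by limma voom). Nqo1, a quinone reductase shared with the NRF2 pathway, was at 56.4, 39.0 and 49.1 CPM in sham, 7.99, 6.91 and 8.33 in TPN and 33.7, 34.5 and 34.1 in starvation. It fell by 1.57 ± 0.14 (adjusted p = 0.00108), with -2.63 ± 0.17 in TPN and -0.50 ± 0.16 in starvation and every unfed library below sham.

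The 250 bases before the RefSeq start of Cyp1a1 (GRCm38.p6, chr9:57697363-57697612, plus strand) are shown for the core of the receptor's element, GCGTG on either strand, in capitals.
Cyp1a1: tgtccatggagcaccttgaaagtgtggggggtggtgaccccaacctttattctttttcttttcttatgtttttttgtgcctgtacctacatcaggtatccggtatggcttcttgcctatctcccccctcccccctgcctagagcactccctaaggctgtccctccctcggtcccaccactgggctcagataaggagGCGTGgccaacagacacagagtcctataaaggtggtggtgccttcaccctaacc
It holds 1 core, 54 bases before the start. At least 1 such core is held by 30.9% of the 27025 genes with a promoter and by 47.5% of the tested genes among them, so the match in itself tells little.

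Of 14 tested P450 genes of families 2 and 3, 4 fell and 0 rose (0 also at an unadjusted p under 0.05, by DESeq2 and by limma voom). All 4, Cyp2c55, Cyp2c66, Cyp2c65 and Cyp2b10, are close to other copies of their families, and reads may be shared. Cyp2c65 was called in 3 of the 9 fits (-1.26 to -1.0) and lost without sham replicates 1 and 3, each TPN replicate and starvation replicate 2, and the others were called in all 9. The P450 list had 8 members lower without starvation replicate 3 and 3 or 4 in the other fits. Cyp2c55 was at 34.8, 30.1 and 36.7 CPM in sham, 1.73, 1.43 and 2.16 in TPN and 13.7, 16.1 and 19.8 in starvation. It fell by 2.63 ± 0.17 (adjusted p = 2.65e-04; -4.23 ± 0.24 and -1.04 ± 0.20), without overlap between any groups. Cyp2c66 (-1.87 ± 0.20) and Cyp2b10 (-1.74 ± 0.24) fell by -3.19 and -2.90 in TPN and stood at -0.54 and -0.58 in starvation, where they overlapped sham. The 3 differences from starvation were called, at -3.20, -2.65 and -2.33 (adjusted p = 7.17e-04, 0.00130 and 0.00509).

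Glutathione and NRF2 targets, the enzymes that meet oxidants and supply NADPH, fell in 6 of 21 tested members and rose in 0 (1 at an unadjusted p under 0.05, 0 by DESeq2 and by limma voom). In this glutathione list 4 members were lower when sham replicate 1 or 3, a TPN replicate or starvation replicate 2 was left out, and 12 lower and 1 higher without starvation replicate 3. G6pdx, which starts the pentose phosphate pathway, was at 81.4, 62.5 and 86.5 CPM in sham, 30.7, 30.9 and 30.4 in TPN and 54.1, 56.7 and 53.9 in starvation. Gpx2, the glutathione peroxidase of the gut epithelium, was at 229, 126 and 205 CPM in sham, 43.4, 41.5 and 44.2 in TPN and 110, 118 and 75.9 in starvation. In both genes the groups were ordered sham, starvation, TPN without overlap. G6pdx fell by 0.90 ± 0.12 (adjusted p = 0.00661; -1.32 ± 0.14 and -0.48 ± 0.14) and Gpx2 by 1.5 ± 0.20 (adjusted p = 0.00661; -2.12 ± 0.25 and -0.88 ± 0.24). Txnrd1 (-0.62 ± 0.14) and Srxn1 (-0.94 ± 0.21), which restore thioredoxin and peroxiredoxins, were kept in 3 and 2 fits. Of 22 conjugation enzymes 5 fell and 1 rose, or 0 without sham replicate 3 and 12 lower and 2 higher without starvation replicate 3. Gstm1 (-0.82 ± 0.13) and Ugt2b5 (-1.16 ± 0.19) took their fall from TPN (-1.90 and -2.26), with 0.27 and -0.06 in starvation. Gstm1 was lost without sham replicate 3 and Ugt2b5 also without sham replicate 1 and TPN replicate 1. Gstm2 (-1.03 ± 0.21, kept in 3 fits, -1.12 to -0.92) was lower in both groups, at -1.29 and -0.77, and Mgst1 rose by 0.82 ± 0.17 (kept in 2 fits).

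Several other called genes came almost wholly from a single group, and in 2 the groups lay on opposite sides of sham. Aqp3, a water and glycerol channel, was at 56.7, 66.6 and 66.7 CPM in sham, 5.27, 4.17 and 4.96 in TPN and 49.4, 53.9 and 108 in starvation. Its joint fall of 1.78 ± 0.23 (adjusted p = 0.00661) was -3.71 ± 0.31 in TPN and 0.15 ± 0.27 in starvation. Gstm4, a glutathione transferase, had the same pattern, with -2.93 and -0.07 (joint -1.5 ± 0.20, adjusted p = 0.00693). Slc5a4a, a sugar sensor of the sodium-glucose transporter family, and Akr1c14, a steroid dehydrogenase, moved in opposite directions. All TPN libraries lay below sham (-3.14 and -2.60) and all starvation libraries above it (0.76 and 0.58). The joint falls of these genes (-1.19 ± 0.22 and -1.01 ± 0.22) were kept in 3 and 2 fits. Both were lost without sham replicates 1 and 3, each TPN replicate and starvation replicate 2. In the other direction, Defa24, an alpha-defensin of Paneth cells, was at 72.0, 204 and 106 CPM in sham, 142, 108 and 174 in TPN and 17.6, 15.1 and 9.72 in starvation, a joint fall of 1.51 ± 0.31 that came from starvation (-3.17, against 0.15). It was kept in 3 fits (-1.79 to -0.99) and can share reads with its near-identical copies. Serpina3n, an acute phase protease inhibitor, was at 143, 175 and 152 CPM in TPN and 16.9, 18.9 and 2.20 in starvation, against 5.50, 10.6 and 5.33 in sham. Its joint rise of 2.66 ± 0.56 (kept in 3 fits, 2.46 to 3.04) was 4.47 in TPN and 0.85 in starvation.

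Dnah2 and Paqr9 fell in both groups by unequal amounts. Dnah2, an axonemal dynein heavy chain with Dnah2os on its other strand, was at 41.3, 70.3 and 62.1 CPM in sham, 3.46, 4.05 and 3.60 in TPN and 18.2, 23.0 and 39.3 in starvation. It fell by 2.54 ± 0.25 (adjusted p = 0.00204; -3.97 ± 0.33 and -1.11 ± 0.29). Paqr9, of the progestin and adipoQ receptor family, was at 29.7, 22.4 and 43.7 CPM in sham, 11.3, 9.54 and 11.3 in TPN and 0.88, 3.38 and 2.78 in starvation. It fell by 2.68 ± 0.33 (adjusted p = 0.00530; -1.57 ± 0.39 and -3.79 ± 0.45), so that here starvation was the lower group, by 2.22 (adjusted p = 0.0199). Cybrd1, the brush border ferric reductase, fell by 2.11 ± 0.34 (adjusted p = 0.0124; -2.58 ± 0.44 and -1.64 ± 0.42). It was at 39.95, 44.3 and 14.2 CPM in sham, 4.12, 4.77 and 7.45 in TPN and 13.6, 9.29 and 8.45 in starvation, sham replicate 3 lying just above starvation replicate 1. Of the 22 tested genes of iron, vitamin and water handling only Cybrd1, Aqp3 and Aqp8 (-1.88 ± 0.37, kept in 4 fits, -2.20 to -1.71) were called, all lower. At an unadjusted p under 0.05, 10 of the 22 iron, vitamin and water genes were lower and 1 higher, DESeq2 called 7 lower and limma voom 3, both 0 higher. The list's median was -0.61 (-0.93 in TPN, -0.14 in starvation). It had 10 members lower without starvation replicate 3, 5 without sham replicate 2 and 2 or 3 in the other fits.

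Sugar and peptide uptake had few calls in the joint contrast, and in several of these genes TPN and starvation lay on different sides of sham. Of 28 tested peptidases and amino acid carriers 0 rose and 1 fell, Anpep, an aminopeptidase (-0.90 ± 0.23, kept in 1 fit, -1.66 in TPN and -0.14 in starvation). At an unadjusted p under 0.05, 3 of the peptidases and carriers were higher and 6 lower, DESeq2 called 1 higher and 3 lower, and limma voom 0. Without starvation replicate 3, 2 peptidases and amino acid carriers were higher and 7 lower, and 0 were called in each of the other 8 fits. TPN was the lower group in 15 of the 28 by the test against starvation, where 3.90% of all genes were. Of 13 carbohydrate genes the fructose carrier Slc2a5 (-0.93 ± 0.18) and Slc5a4a fell, and TPN was lower than starvation in 7. Slc2a5 stood at -1.84 in TPN and -0.02 in starvation, and was called in 3 of the 9 fits (-1.08 to -0.84). The carbohydrate list had 6 members lower without starvation replicate 3, and 0 called without sham replicates 1 or 3, any TPN replicate or starvation replicate 2. Slc2a7, a hexose transporter, was at 57.6, 40.6 and 66.1 CPM in sham, 11.0, 6.91 and 8.17 in TPN and 77.4, 97.4 and 154 in starvation. All TPN libraries lay below and all starvation libraries above sham, at -2.65 ± 0.31 and 1.00 ± 0.28, and the joint change of -0.83 ± 0.24 was not called (adjusted p = 0.0716). The nucleoside carrier Slc28a1 (-2.54 and 0.90), Slc5a4b (-1.94 and 0.73) and the neutral amino acid carrier Slc6a19 (-1.12 and 1.19) had the same order. So did Cirbp, the cold-inducible RNA-binding protein, at 25.5, 25.6 and 23.4 CPM in sham, 10.9, 14.7 and 10.5 in TPN and 62.8, 57.8 and 78.9 in starvation (-1.05 ± 0.18 and 1.42 ± 0.18). Acsm5, Gprin1 and Olfr165 completed the 8 largest such differences, at -2.91, -2.52 and -2.42 for TPN minus starvation. Slc5a1 and Sis, the glucose cotransporter and sucrase-isomaltase, and Slc15a1, the peptide transporter, were not called against sham (0.04 ± 0.23, -0.45 ± 0.17 and -0.05 ± 0.35).

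**Figure D5:**
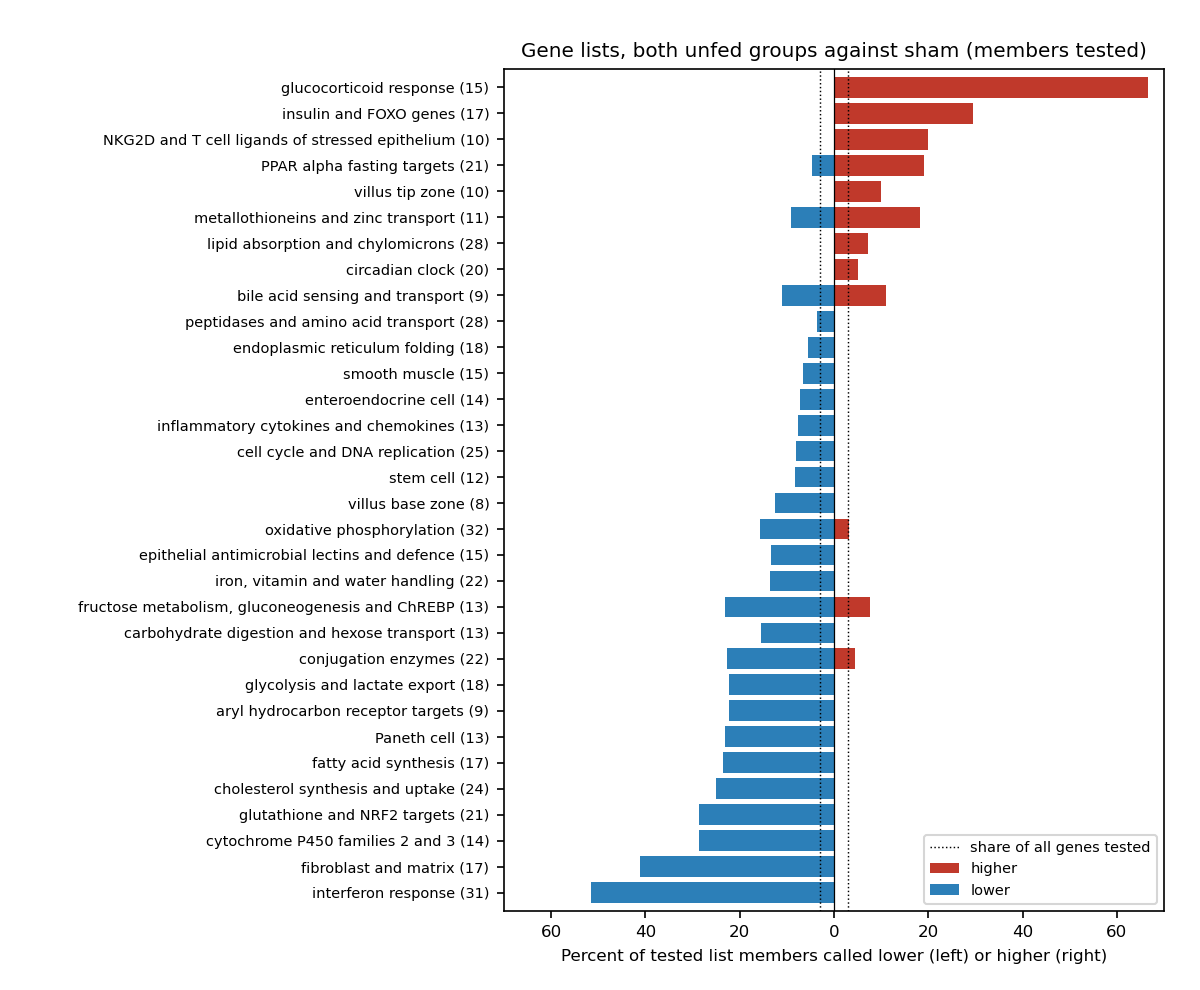
Share of the tested members of each gene list that were called lower (left, blue) or higher (right, red) in the joint contrast against sham, with dotted lines at the share of all genes tested (2.98% lower, 3.05% higher); lists with no call are left out and the number tested stands in brackets. Glucocorticoid response (10 of 15 higher) and interferon response (16 of 31 lower) have the longest bars.

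Fructose use and sugar storage gave 3 falls and 1 rise of 13: Gpd1 (-0.88 ± 0.17), Pklr (-0.84 ± 0.17) and Fbp1 (-1.22 ± 0.28) fell and G6pc, which releases free glucose, rose by 1.06 ± 0.22. Each was kept in 2 or 3 of 9 fits and lost without sham replicates 1 and 3, each TPN replicate and starvation replicate 2, and G6pc was 1.73 in TPN and 0.40 in starvation, a tested difference of 1.33 (adjusted p = 0.0167). Without starvation replicate 3 the fructose and sugar storage list had 5 lower and 2 higher. The stress ligands Raet1e (2.09 ± 0.52) and H60b (2.03 ± 0.51), which mark cells for the receptor NKG2D, rose in the mean. Their genes overlap on the same strand, starvation replicate 3 was the lowest unfed library for both (7.52 and 6.13 CPM, against 43.8 and 36.0, and 35.3 and 29.3, in the other starvation libraries), and each call was kept in 1 fit. Of the bile acid genes Nr1h4, the bile acid receptor FXR, rose by 0.88 ± 0.21 and Abcc3, a basolateral exporter, fell by 0.95 ± 0.17 (kept in 2 and 3 fits). The bile acid list had 3 members lower and 1 higher without starvation replicate 3. Among 20 clock genes Per1 alone was called, while Arntl (0.93 ± 0.30) and Dbp (-0.82 ± 0.24) were not. At an unadjusted p under 0.05, 8 clock genes were higher and 5 lower, DESeq2 called 2 higher and 3 lower, and limma voom 1 higher and 0 lower. Of the clock genes 3 were higher and 5 lower without starvation replicate 3.

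Markers of epithelial cell types and villus zones had few calls in the joint contrast, at most 1 in each list except Paneth cells. Without starvation replicate 3 the calls were 4 lower and 1 higher of 10 for the villus tip, 2 lower of 8 for the villus base, 4 lower of 14 for enteroendocrine cells and 6 lower of 13 for Paneth cells. The Paneth list had a median of -0.77 (0.26 in TPN, -1.88 in starvation). Of 13 Paneth markers 3 fell, Defa24, Defa5 (-1.42 ± 0.26) and Itln1 (-0.77 ± 0.18), where TPN stood at 0.15, 0.08 and -0.08 and starvation at -3.17, -2.92 and -1.47. In 8 of the 13 TPN was called higher than starvation, against 1.94% of all genes, and without sham replicate 3 or any TPN replicate no Paneth cell marker was called in the joint contrast. Gsdmc4, a gasdermin of the villus base, had a large fall at low counts: 6.97, 4.05 and 8.66 CPM in sham, 0.41, 0.48 and 0.72 in TPN and 0, 0.53 and 0.35 in starvation, from 213, 18 and 8 reads per group. It fell by 4.05 ± 0.56 (adjusted p = 0.00797; -3.58 ± 0.69 and -4.53 ± 0.76). Slc17a4, a phosphate and urate transporter of the villus tip list, rose by 1.36 ± 0.31 (kept in 2 fits), and Tnfrsf19, of the stem cell list, fell by 1.22 ± 0.29 (kept in 1). Cck, the gut hormone that answers fat and protein, was at 20.5, 19.7 and 20.9 CPM in sham, 12.2, 9.77 and 10.9 in TPN and 9.65, 9.08 and 13.8 in starvation, a fall of 0.90 ± 0.17 (adjusted p = 0.0221; -0.89 and -0.91). Its interval of TPN minus starvation was -0.45 to 0.49, and its call was kept in 3 fits. The lineage genes Lgr5 (-0.17 ± 0.44), Olfm4 (-0.61 ± 0.44), Mki67 (-0.50 ± 0.50), Lyz1 (-0.49 ± 0.37), Muc2 (0.18 ± 0.19), Chga (0.17 ± 0.12) and Dclk1 (0.37 ± 0.26), were not called; the first pair mark stem cells, and the rest in turn dividing, Paneth, goblet, enteroendocrine and tuft cells.

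Among the smaller lists, 2 of 25 cell cycle genes fell, Ccnd1, cyclin D1 (-1.16 ± 0.25, kept in 3 fits), and Birc5, survivin (-0.87 ± 0.21, kept in 2). Pdia3, a disulfide isomerase of the endoplasmic reticulum, fell by 0.70 ± 0.13 (kept in 4 fits), further in starvation (-1.03) than in TPN (-0.38). Ptgs2, an inducible prostaglandin synthase, fell by 1.16 ± 0.25 (kept in 1 fit), and Duox2, the oxidase of the epithelial surface, by 2.33 ± 0.56 at 0.12 to 5.99 CPM (kept in 2). Reg3g, an antibacterial lectin, was not called (-1.44 ± 0.39, adjusted p = 0.0595), nor was Asns, the asparagine synthetase raised by amino acid shortage (0.32 ± 0.42). The lists of Pdia3, Duox2 and Ptgs2 had more calls when starvation replicate 3 was left out: endoplasmic reticulum folding went from 1 lower to 5 lower and 1 higher, epithelial defence from 2 to 4 lower, and inflammatory genes from 1 lower to 2 lower and 1 higher. The NKG2D ligands went from 2 higher to 3 higher and 1 lower. In 17 lists no member was called, among them the ATF4 amino acid response, autophagy and lysosome, cytosolic heat shock, ribosomal proteins, and goblet, tuft, endothelial, T, B, macrophage, neutrophil and pancreatic acinar markers. Of their 214 members tested, 35 had an unadjusted p under 0.05, DESeq2 called 14 and limma voom 1. Without starvation replicate 3, 20 members were called higher and 14 lower, in 11 of the 17 lists, and the other 8 fits called at most 4. In cytosolic heat shock and in ribosomal proteins TPN was nevertheless above starvation in 10 of 18 and 7 of 28 members, against 1.94% of all genes.

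B and plasma cell markers made up 7 of the 20 higher calls without starvation replicate 3. With all libraries 0 of the 13 were called, although 6 were higher at an unadjusted p under 0.05 and DESeq2 called 3 higher (limma voom 0), with 0 lower by any of these. The median of the B and plasma cell list was 1.61 (0.99 in TPN, 2.43 in starvation). Its mean level was 1.92 to 3.02 log2 CPM in sham, 2.73 to 4.30 in TPN, 5.34 and 5.06 in starvation replicates 1 and 2 and 1.66 in starvation replicate 3. Ms4a1, the B cell surface protein CD20, chosen as an example after its values were seen, was at 0.49, 0.43 and 0.83 CPM in sham, 0.49, 5.84 and 19.1 in TPN and 61.3, 43.2 and 0.46 in starvation. It was near the detection limit in all sham libraries, in TPN replicate 1 and in starvation replicate 3, and high in the other 4. Its change of 4.83 ± 1.52 was not called (adjusted p = 0.0854) and was 5.13, and called, without starvation replicate 3. Jchain, which joins antibody chains in plasma cells, stood at -0.20 ± 0.27 and was not called (adjusted p = 0.671). The list's summed level, most of it Jchain, was 1190 to 2190 CPM in sham, 1730 to 2050 in TPN and 684 to 1790 in starvation.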

How the data were processed

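Bulk RNA-seq of mouse jejunum was analysed from a table of whole-number gene counts deposited by the authors. Per the submitters' processing notes, the tools were STAR 2.7.2e, featureCounts 2.0.0, cutadapt 2.9, FastQC 0.11.8 and DESeq2 1.32.0, and GRCm38 and mm10 are the builds listed. The sources used here do not say whether counting used strand. The table's 9 columns that match no sample were not used. Of 21868 genes, 21689 matched a GENCODE gene name.

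Counts were fitted in edgeR 4.0.16 (R 4.3.3) with TMM scaling, filterByExpr and the quasi-likelihood test, with 1 mean for each of the 3 groups over all 9 libraries and 6 residual degrees of freedom. The contrasts were the mean of TPN and starvation minus sham, each group minus sham, and TPN minus starvation, with Benjamini-Hochberg adjustment over 14668 genes at 0.05. The contrasts of TPN and of starvation with sham share the sham libraries, so no overlap or correlation between them was computed. Standard errors are those of the fitted log2 fold changes, and library values are TMM-scaled CPM, 1 read being worth 0.0798 to 0.119 CPM.

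Tested on simulated counts for the joint contrast (14459 genes), the fit called 34 of the 100 genes given a 2-fold change and 86 of the 100 given a 4-fold change, and made 6 calls among 14259 unchanged genes. Changed genes were drawn only from those above a minimum of reads. In the simulated counts no library stood apart and TPN did not differ from starvation. They therefore do not give the rate of false calls in the real libraries. Alternatives were other scalings, filters, thresholds and models, DESeq2 1.42.0, limma 3.58.1 (voom), the replicate number as a block, and left-out libraries. The replicate numbers did not pair the libraries (correlations of same-numbered libraries -0.3 to 0.378, 2 of 9 over 0.1).

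Named genes were the 12 largest rises and falls among called genes with all 6 unfed libraries on 1 side of sham, up to 3 called genes per list by adjusted p, up to 8 each of similar size, of unequal size and on opposite sides of sham, and 23 preset genes, with a mean of at least 3 log2 CPM for those ranked by size. Some genes of these sets are not reported here. Other list members were named after their values were seen. The members and the 49 gene lists were chosen with earlier results of these data known.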

Additional observations from a re-analysis of the deposited data

Results flagged for a closer look

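These genes are listed because the direct test of TPN against starvation called them, so the size of their joint change does not hold for each group. Both groups can still have moved the same way. Of the 709 genes called against sham with all 6 unfed libraries on 1 side, 51 were called between TPN and starvation. Values are TPN minus starvation on the log2 scale.

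Among genes that rose against sham, TPN was the higher group for Serpina3n (3.62), Hif3a (2.01), Zbtb16 (1.58), Ddit4 (1.49), G6pc (1.33) and Fkbp5 (1.17).

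Among genes that fell, TPN was the lower group for the enzymes of foreign compounds Cyp1a1 (-6.69), Cyp2c55 (-3.20), Cyp2c66 (-2.65), Cyp2c65 (-1.61), Cyp2b10 (-2.33), Akr1c14 (-3.17), Gstm4 (-2.86), Gstm1 (-2.17), Ugt2b5 (-2.21) and Nqo1 (-2.13). The same order held for the metabolic genes Me1 (-1.99), Fbp1 (-1.86), Mvk (-1.40), Gpx2 (-1.24), Gpd1 (-1.12), Slc25a1 (-0.98) and G6pdx (-0.84). It held too for the transport and surface genes Slc5a4a (-3.90), Aqp3 (-3.86), Slc2a5 (-1.82), Anpep (-1.53) and Abcc3 (-1.31), and for Dnah2 (-2.85) and Tap1 (-0.75). TPN was the higher group for Defa24 (3.32), Defa5 (3.00), Paqr9 (2.22), Gbp6 (1.91), Itln1 (1.39) and Pdia3 (0.66).

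Among genes not called against sham, the difference was -3.65 for Slc2a7, -3.44 for Slc28a1, -2.91 for Acsm5, -2.67 for Slc5a4b, -2.52 for Gprin1, -2.47 for Cirbp, -2.42 for Olfr165, -2.30 for Slc6a19, -2.16 for Fabp2, -2.07 for Slc15a1, -1.45 for Dbp, 0.55 for Chga, 1.11 for Errfi1 and 1.26 for Tgtp2.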

How the results depend on the processing

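The 447 rises and 437 falls against sham became 1085 and 1076 with DESeq2, 102 and 145 with the smooth muscle level as a covariate, 109 and 76 with the 6 unfed libraries as 1 group, 55 and 45 at an adjusted p under 0.01, 210 and 180 at 2-fold or more, and 2025 and 2034 without both sham replicate 2 and starvation replicate 3. Leaving out single libraries gave 54 to 1492 rises and 50 to 1799 falls. The 285 genes higher and 572 lower in TPN than in starvation became 692 and 1099 with DESeq2, 42 and 102 at an adjusted p under 0.01, 169 and 363 at 2-fold or more, and 1500 and 1705 without both libraries; the covariate gave 449 higher. Single left-out libraries gave 43 to 482 higher and 81 to 826 lower. The 709 genes called against sham with all unfed libraries on 1 side of sham became 1331 with DESeq2, 161 with the covariate, 3434 without both libraries and 97 to 2607 without single libraries. With the replicate number as a block, which did not pair the libraries, the counts were 129 rises and 131 falls, 133 higher and 253 lower in TPN, and 224 on 1 side. Other scalings and filters and limma voom kept these counts within 1.5 times. With scaling by library totals, the median over all genes went from -0.03 to 0.09. The cause was not tested in any of these. No called gene named here changed sign.

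Genes not called against sham changed sign as follows. With the 6 unfed libraries as 1 group, the log2 fold change of Slc2a7 was 0.109, the log2 fold change of Slc28a1 0.0271, the log2 fold change of Acsm5 0.269 and the log2 fold change of Gprin1 0.344. With the smooth muscle covariate the log2 fold change of Olfr165 was -0.0181 and the log2 fold change of Asns -0.432. The log2 fold change of Slc6a19 was -0.052 with limma voom, -0.0331 with the replicate block, -0.228 without both libraries, and -0.303 to 0.188 without single libraries, below 0 without sham replicate 3 (-0.00981) and starvation replicate 3. The log2 fold change of Cpt1a was 0.0837 with library totals and -0.281 to 0.111 without single libraries. The log2 fold change of Slc5a1 was -0.0303 with the covariate, -0.216 without both libraries and -0.127 to 0.132 without single libraries. The log2 fold change of Slc15a1 was 0.296 with 1 unfed group, 0.457 with the covariate, 0.0245 with library totals and -0.353 to 0.265 without single libraries. The log2 fold change of Apoa4 was 0.475 with the covariate and -0.842 to 0.14 without single libraries. The log2 fold change of Dusp1 was 0.643 with the covariate, 0.239 without both libraries and -0.667 to 0.368 without single libraries. Without single libraries the log2 fold change of Fasn ran from -1.54 to 0.00266 the log2 fold change of Lgr5 from -0.567 to 0.14 and the log2 fold change of Jchain from -0.395 to 0.0338. With 3 libraries a group, a 2-fold change was often below detection, so genes not called may still have differed.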
